A study of Mus musculus with 17 samples.

Results

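Ly6C high macrophages sorted from injured muscle on day 4 were compared with those sorted on day 2, gene by gene. Genes entered when either of the 2 groups had a log2 level of 5 or more, which held for 12348 of the 38087 genes in the table (32.4%). Both groups came from male DBA/2J mice aged 3 months whose tibialis anterior, a shin muscle, had been injected with cardiotoxin, a snake venom toxin that destroys muscle fibres. The labels give 3 samples per group, 6 of the 17 in the series, and do not say whether a sample was 1 animal or a pool, or whether both sorts of a day came from the same animals. The deposited table holds 1 column per group, a mean of log2 normalised reads made by the authors, with no value for single samples. A difference between the 2 columns therefore has no replicate check, and it is given as a size on the log2 scale or as a fold (the ratio of geometric means), with no test. Whether it exceeds the spread between animals is unknown.

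Monocytes that carry high levels of the surface protein Ly6C enter injured muscle from the blood, take up debris of dead fibres, and turn into macrophages with low Ly6C during repair. Uptake of dead cells loads a macrophage with cholesterol, which the sterol receptors LXR sense; they switch on genes of lipid export, while the transcription factor SREBP2 drives sterol synthesis when sterol is short. Interferon gamma, a product of lymphocytes and NK cells, induces a set of GTPases, chemokines and antigen presentation genes.

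The label of the sort was checked against its genes. Ly6c2, which encodes the surface marker, had levels of 9.65, 9.87 and 10.56 on days 1, 2 and 4 in the Ly6C high sort. The Ly6C low sort had 6.16 on day 2 and 4.64 on day 4. All 19 macrophage identity genes were at or above 5 on both days. Of these, 2 were at least 2-fold higher on day 4 and 2 lower (10.5% each), against 6.72% and 1.95% of all such genes. The 19 genes had a median difference of 0.07 and a range from -1.32 to 1.21. Their summed linear level was 1.41% of the column on day 2 and 1.05% on day 4. Csf1r (13.52 on day 2 and 14.06 on day 4), Emr1 (12.51 and 12.86) and Cd68 (13.70 and 13.44) were among those that differed by less than 2-fold. Markers of other cells were not constant either. The summed linear level of 19 fibroblast markers was 0.0975% of the column on day 2 and 0.647% on day 4, that of 20 endothelial markers 0.0196% and 0.0960%, that of 12 pericyte and smooth muscle markers 0.00620% and 0.0466%, and that of 13 plasmacytoid dendritic cell markers 0.0177% and 0.0459%. Neutrophil markers went from 0.0404% to 0.0279%, with Ly6g and Elane listed at 0 on both days. In sorted bulk RNA, fewer cells of a type and less RNA per cell cannot be told apart, and the part that other cells had in the differences below was not tested.

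**Figure D1:**
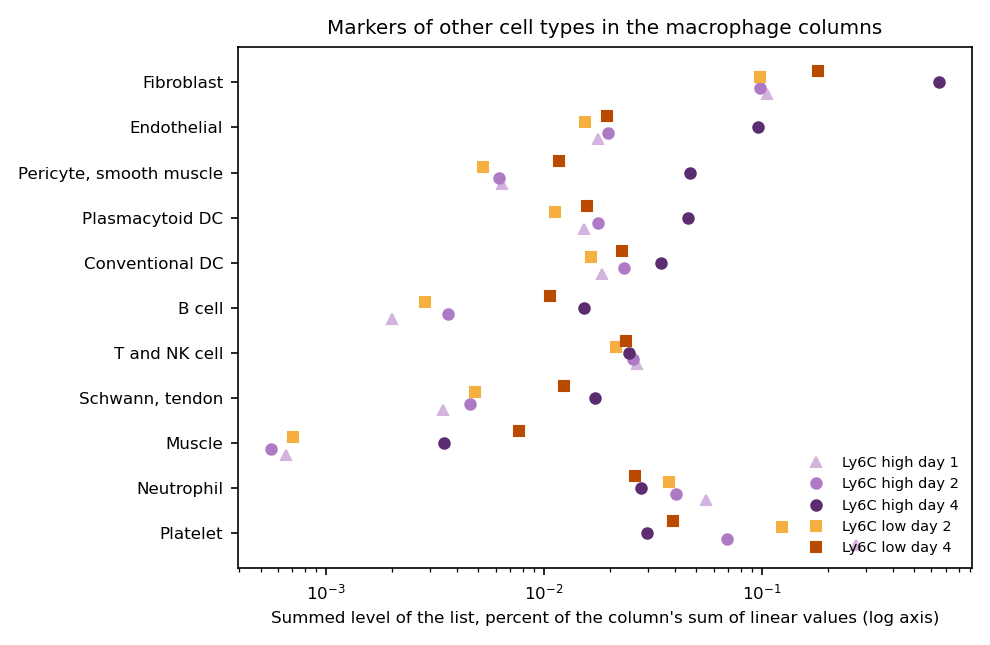
Summed linear level of each marker list (vertical axis) as a percent of the column's sum (horizontal log axis) in the 5 macrophage columns, 1 point per column and no error bars because each column is the authors' mean. The day 4 Ly6C high column holds the highest sum of fibroblast (0.647%), endothelial (0.0960%), pericyte (0.0466%) and plasmacytoid dendritic cell markers (0.0459%), while the muscle list is highest in Ly6C low cells of day 4 (0.00766%).

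Of the 12348 genes, 1761 were at least 2-fold higher on day 4 (14.3%) and 247 at least 2-fold lower (2.00%), which together is 16.3%. At least 8-fold apart were 519 genes upward (4.20%) and 8 downward (0.0648%). The median difference was 0.01, and 8036 genes (65.1%) lay within 0.5 of no difference. Of the genes 2-fold apart, 87.7% were higher on day 4. This share was 68.6% after quantile normalization of the 2 columns, with 1335 genes higher and 611 lower, and the median of all genes then moved to -0.11. With no filter on low values, 91.6% of the genes 2-fold apart were higher, and 77.5% among genes at or above 5 on both days. The value of 5 was reached on day 4 alone by 1273 genes, of which 1028 were 2-fold higher. On day 2 alone 174 reached it, and 34 of those were 2-fold lower. Among the 10901 genes at or above 5 on both days, 733 were higher (6.72%) and 213 lower (1.95%). The gene nearest below the limit was Gm1673 (4.9998). For the gene groups below, the count among members at or above 5 on both days is given beside the full count where they differ, because a member that enters through 1 column alone had to differ.

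**Figure D2:**
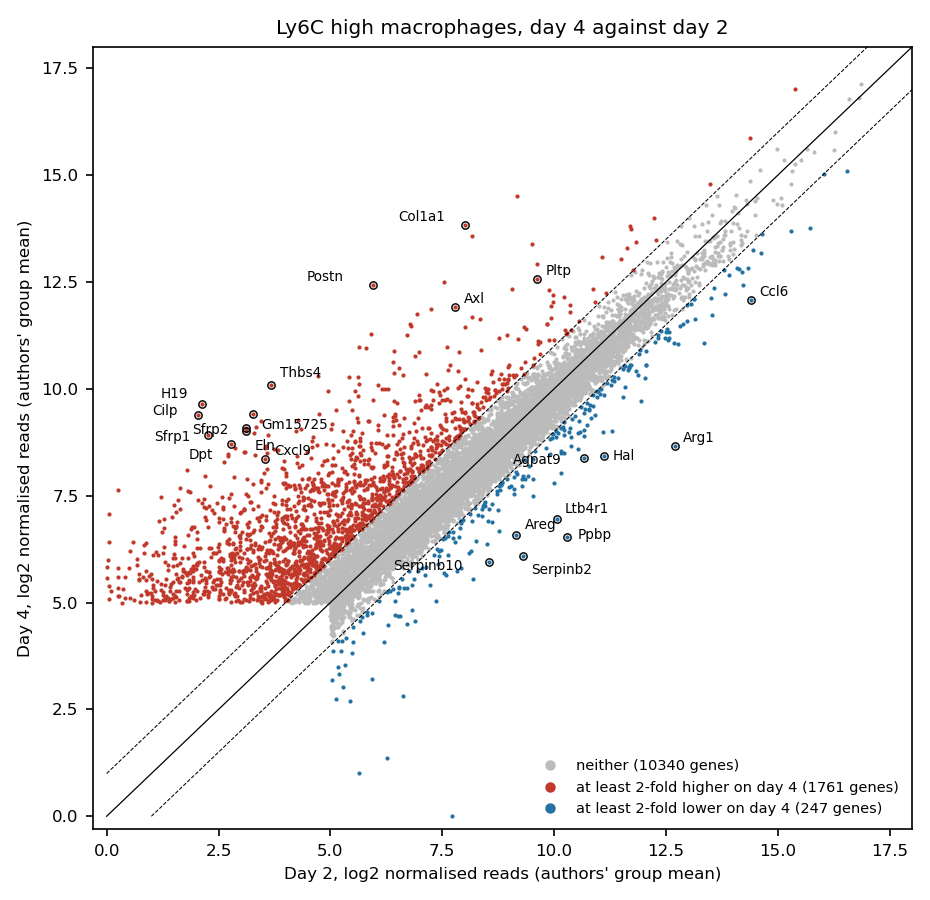
Log2 normalised reads on day 2 (horizontal axis) and day 4 (vertical axis) for the 12348 genes compared, 1 dot per gene, with the line of equality and dashed lines at 2-fold. Circles mark the 4 marker genes and genes named for the highest and lowest differences. Red dots (1761 genes) spread far above the upper dashed line at low day 2 levels, and blue dots (247 genes) stay closer to the lower one.

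Reads per library set the precision. The worth of 1 read, read from the steps of the lowest values, was 0.527, 0.570 and 0.640 normalised units in the day 2 libraries and 0.534, 0.670 and 0.715 in those of day 4. A log2 value of 5 thus stood for 50.0 to 60.8 reads per library on day 2 and 44.7 to 59.9 on day 4. Counting error alone gave a difference an error of 0.163 at a level of 5 and of 0.0575 at a level of 8, which does not cover variation between animals. For the markers it was 0.0439 for Axl, 0.189 for Cxcl9, 0.0242 for Pltp and 0.0712 for Ppbp.

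Each of the 4 marker genes differed by more than 7-fold. Axl (ENSMUSG00000002602, chromosome 7, 25757273 to 25788705, GRCm38, reverse strand), a receptor tyrosine kinase of the TAM family that recognises apoptotic cells through the bridging proteins Gas6 and protein S, was at 7.79 on day 2 and 11.92 on day 4, a difference of 4.13 or 17.5-fold. Cxcl9 (ENSMUSG00000029417, chromosome 5, 92321347 to 92328079, reverse strand), a T cell attracting chemokine induced by interferon gamma, was at 3.55 and 8.36, which is 27.9-fold. Its difference of 4.80 was 3.63 with a pseudocount of 16, since its day 2 level was low. Pltp (ENSMUSG00000017754, chromosome 2, 164839518 to 164857711, reverse strand), a phospholipid transfer protein and target of LXR, was at 9.62 and 12.56, or 7.70-fold. Ppbp (ENSMUSG00000029372, chromosome 5, 90768518 to 90770063, forward strand), a chemokine best known from platelets, went the other way, from 10.30 to 6.54, or 13.5-fold lower. All 4 differed in the same direction between the Ly6C low columns, by 4.63 for Axl, 5.03 for Cxcl9, 2.74 for Pltp and -5.05 for Ppbp. On day 1 the levels in Ly6C high cells were 6.78 for Axl, 1.94 for Cxcl9, 8.48 for Pltp and 13.81 for Ppbp, so the day 2 value lay between those of days 1 and 4 for each.

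**Figure D3:**
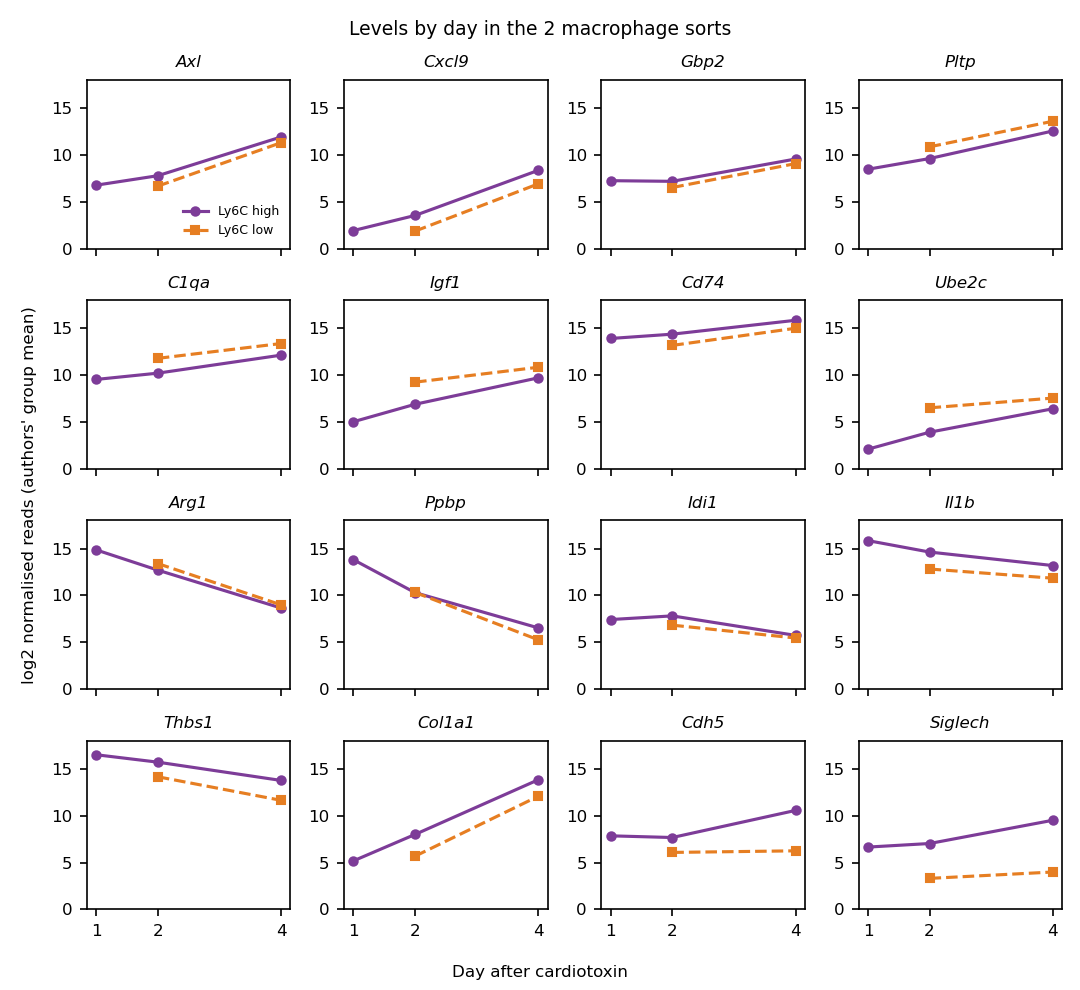
Level in log2 normalised reads (vertical axis; each point is a group mean by the authors, no error bars) of 16 genes against the day after cardiotoxin (horizontal axis) for the Ly6C high sort of days 1, 2 and 4 (solid lines) and the Ly6C low sort of days 2 and 4 (dashed lines). Axl, Cxcl9 and Pltp end higher and Arg1 and Ppbp lower in both sorts, while Cdh5 and Siglech are higher on day 4 in the Ly6C high sort and differ by 0.17 and 0.69 in the other.

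Interferon gamma targets were the macrophage gene group with the highest share of members above 2-fold. All 18 members compared were higher on day 4, with a median difference of 2.18 against 0.01 for all genes compared, and 9 of 9 among those at or above 5 on both days. Iigp1, an immunity-related GTPase that attacks the vacuoles of intracellular parasites, was at 3.37, 2.87 and 8.62 on days 1, 2 and 4, a difference of 5.75 between the last 2 columns. The guanylate-binding protein genes Gbp4 (3.35 on day 2 and 6.98 on day 4) and Gbp6 (3.72 and 7.34) differed by 3.63 and 3.62, and Gbp2 (7.19 and 9.57) by 2.38. Tgtp1 and Tgtp2, which are close paralogs and may split reads between them, were 3.57 and 3.07 higher. Cxcl11, a chemokine for the same receptor as Cxcl9, was at 3.21 and 6.27. Ido1 and Gbp8 were under the value of 5 on both days and were not compared. Day 1 and day 2 levels lay close together for Gbp2 (7.26 and 7.19) and Gbp4 (3.24 and 3.35), so that only day 4 stood apart.

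The transcript of interferon gamma itself, Ifng, was at 0.00, 0.95 and 3.29 in Ly6C high cells, below the value of 5 throughout, and listed at 0 in Ly6C low cells on both days. The same GTPase and chemokine genes had a median difference of 2.78 between the Ly6C low columns, with 17 of 18 at least 2-fold higher. Plasmacytoid dendritic cell markers differed there by a median of 0.16 and endothelial markers by 0.65, against 2.03 and 2.74 in the Ly6C high columns. Members of these lists were those that passed the filter in the Ly6C high columns. Whether other cells contributed to the interferon gamma group in either sort was not tested.

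Genes induced by type I interferon differed by less. Of 29 members, 13 were at least 2-fold higher (44.8%), none were lower, and 28 were above 0, with a median of 0.86. At or above 5 on both days were 28 members, of which 12 were higher. Ifi44 was at 3.13 on day 2 and 6.61 on day 4, Ifit2 at 6.40 and 8.92, and Ifit3 at 6.25 and 8.63; the IFIT proteins bind foreign RNA. Mx1, a GTPase that blocks influenza virus, was at 7.30 and 8.77. Isg15, a ubiquitin-like modifier, was at 7.97 and 8.83, under 2-fold, and Dhx58, an RNA helicase, at 8.64 and 8.62. All 16 receptors, kinases and transcription factors of the interferon pathways were at or above 5 on both days. Of these, 3 were 2-fold higher (18.8%), against 14.3% of all genes and 6.72% of those at or above 5 on both days. They were Irf7 (9.63 and 11.13), Irf1 (9.99 and 11.14) and Irf8 (10.29 and 11.30). The receptor subunits Ifngr1 (10.81 and 10.73) and Ifnar1 (12.45 and 11.96) and the inhibitor Socs1 (8.05 and 7.72) were level or slightly lower.

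Promoter sequences are shown for 1 member of each interferon list, since 28 of 29 type I members and all 18 of the other list were above 0 and many share a known binding motif for interferon regulatory factor complexes. RefSeq windows on GRCm38.p6, from 250 bases before to 50 after the start site, were found for 11 of the 18 genes of the interferon gamma list and 20 of the type I list. The interferon-stimulated response element, searched on both strands as GAAA, any 2 bases and GAAA, was present in 10 of the 11 (90.9%) and in 13 of the 20 (65.0%), against 3.98% of the 8070 compared genes with a window and 3.99% of all 27025 genes with one. Cxcl9 was the member of the interferon gamma list whose window lacked these letters. The guanylate-binding protein genes arose by duplication, so their windows may share sequence for that reason. The windows run 5′ to 3′ on the strand of the gene, and capitals mark the element, here on the opposite strand. In Gbp2, at chr3:142620413-142620712 (forward strand), it begins at position -59 from the start site, and in Ifit3, at chr19:34583279-34583578 (forward strand), at positions -156 and -122.
Gbp2: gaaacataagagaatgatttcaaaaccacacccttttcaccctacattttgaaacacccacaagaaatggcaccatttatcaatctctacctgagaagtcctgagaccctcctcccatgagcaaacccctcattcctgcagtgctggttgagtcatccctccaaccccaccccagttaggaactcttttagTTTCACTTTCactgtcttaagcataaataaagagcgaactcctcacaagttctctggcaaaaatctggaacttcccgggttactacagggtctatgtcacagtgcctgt
Ifit3: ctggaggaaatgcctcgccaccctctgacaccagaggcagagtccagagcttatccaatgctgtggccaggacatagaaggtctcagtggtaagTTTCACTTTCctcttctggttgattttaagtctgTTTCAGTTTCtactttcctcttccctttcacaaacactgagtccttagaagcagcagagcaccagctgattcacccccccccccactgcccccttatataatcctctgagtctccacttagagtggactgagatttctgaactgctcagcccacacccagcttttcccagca
The motif describes these windows and says nothing of whether a factor was bound in these cells.

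Antigen presentation genes were higher on day 4 too. Of 13 members of the MHC class II group, 8 were at least 2-fold higher (61.5%) and none lower, with a median of 1.24, and 7 of 12 among those at or above 5 on both days. The invariant chain gene Cd74 was at 13.92, 14.38 and 15.86 on days 1, 2 and 4, and H2-Aa and H2-Eb1, which encode class II chains, were 1.67 and 1.61 higher on day 4 than on day 2. Ciita, the master regulator of these genes and a member of the interferon gamma list as well, was at 6.80 and 8.62. The costimulatory receptor gene Cd40 was 1.28 higher, but its partners in T cell activation Cd80 (10.29 and 9.42) and Cd86 (11.89 and 11.60) were not. Dendritic cell markers, cells that also express class II, were higher in the same column (6 of 11 conventional markers, median 1.17, and 4 of 9 at or above 5 on both days), and whether they contributed was not tested. Class I genes and their peptide supply had a median of 0.60 with 5 of 20 at least 2-fold higher. H2-T23 was at 9.69 and 11.10, the light chain B2m at 13.64 and 14.51, and the immunoproteasome subunit Psmb8 at 10.17 and 10.20. Reads of the H2 genes may be shared among paralogs.

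Axl was not the only gene for clearance of dead cells with a higher level on day 4. Of 23 genes for recognition and uptake of apoptotic cells, 8 were 2-fold higher (34.8%) and 1 was lower, with a median of 0.72; the same 9 were among the 22 at or above 5 on both days. Mertk, the TAM receptor typical of mature macrophages, was at 8.60, 8.98 and 9.80 on days 1, 2 and 4, a difference of 0.82 between days 2 and 4 next to 4.13 for Axl. Tyro3, the other member of the family, was under the value of 5 on both days (2.24 and 4.00). The bridging proteins Gas6 (10.33 and 11.23) and Pros1 (9.31 and 10.30) were higher by less than 2-fold, and Mfge8, which links phosphatidylserine to integrins, was 2.49 higher. Thbs1 (thrombospondin), also a bridge to dead cells, was the lower member, at 16.50, 15.71 and 13.76 over the 3 days. The scavenger receptors Stab1 (13.40 and 12.95) and Cd36 (13.02 and 12.53) differed by less than 2-fold. Between the Ly6C low columns Axl differed by 4.63 and Mertk by 1.45.

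Complement genes were mostly higher on day 4. Of 18 members, 12 were at least 2-fold higher (66.7%) and 3 lower (16.7%), with a median of 1.91. At or above 5 on both days, 9 of 15 were higher. The C1q chains C1qb (9.97 and 12.04), C1qc (9.94 and 11.95) and C1qa (10.22 and 12.14) were about equally higher, by 2.07, 2.01 and 1.92. The protease gene C1s was at 3.60 and 8.91 and Serping1, which encodes its inhibitor, at 5.62 and 10.28; fibroblasts express both, and the fibroblast list was higher in the same column. C2 (2.28) and Cfb (2.23), the related proteases of the classical and alternative convertases, differed alike. The 3 lower members were the receptor genes C5ar1 (11.84 and 10.41) and Itgam (14.14 and 12.81) and the properdin gene Cfp (12.89 and 11.53). C3, the central component, was at 12.09 and 12.72.

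Lipid genes fell into opposite groups. Targets and partners of LXR were 2-fold higher for 7 of 19 (36.8%) and lower for none, with a median of 0.49, and 6 of 17 among those at or above 5 on both days. Besides Pltp these were Abcg1 (8.94 on day 2 and 11.27 on day 4), a cholesterol exporter, Mylip (7.92 and 9.69), which degrades the LDL receptor, Apoe (15.38 and 17.02), Lpl (11.08 and 13.08), Scd2 (8.81 and 10.36) and Scd1 (3.97 and 7.77), a desaturase gene that adipocytes and other cells express strongly. Abca1, another exporter and a classical LXR target, was at 13.61, 12.75 and 13.47 on days 1, 2 and 4 and so was under 2-fold. The receptor genes themselves, Nr1h3 (8.79 and 9.32) and Nr1h2 (10.04 and 9.92), differed by 0.53 and -0.12.

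Sterol synthesis genes were lower on day 4. Of 25 genes, 8 were at least 2-fold lower (32.0%, against 2.00% of all genes), none were higher, and 23 were below 0, with a median of -0.70. At or above 5 on both days, 7 of 23 were lower. Idi1, the isomerase of the isoprenoid units, was at 7.43, 7.82 and 5.74 on days 1, 2 and 4, or 4.24-fold lower on day 4 than on day 2, with a counting error of 0.100 on a difference of -2.09. The farnesyl diphosphate synthase gene Fdps differed by -1.83, the squalene epoxidase gene Sqle was at 8.53 and 6.90, and the demethylase gene Cyp51 was at 9.10 and 7.66. Srebf2, which encodes SREBP2, was itself 1.15 lower. Hmgcs1, which makes HMG-CoA, was at 9.41 and 8.78, under 2-fold, and Dhcr7, a reductase late in the pathway, at 6.87 and 7.10. Between the Ly6C low columns the median of the same genes was -0.38, with 5 of 25 at least 2-fold lower.

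The sterol list has RefSeq windows for 17 of its 25 genes. The sterol regulatory element, searched as TCACNCCAC, was found in 1 of them, that of Hmgcs1 (5.88%), against 1.35% of the compared genes with a window. The CCAAT box, searched as CCAAT, to which the SREBP partner NF-Y binds, was found in 16 of 17 (94.1%) against 42.4%. The window of Idi1 is shown as the member with a window that was lowest, at chr13:8885356-8885655 (forward strand), with the boxes in capitals at positions -45 and -14, both on the opposite strand.
Idi1: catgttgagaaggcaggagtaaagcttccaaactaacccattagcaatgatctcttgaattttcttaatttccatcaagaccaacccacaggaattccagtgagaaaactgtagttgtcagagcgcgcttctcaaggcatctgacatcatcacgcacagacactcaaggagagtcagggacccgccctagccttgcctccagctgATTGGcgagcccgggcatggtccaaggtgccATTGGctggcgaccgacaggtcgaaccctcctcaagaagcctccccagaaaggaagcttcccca
So short a motif occurs in many windows, and the CCAAT box was also in those of 18 of 22 mitosis genes (81.8%).

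Pparg, the receptor named in the title of the series, was at 6.29, 7.93 and 8.81 on days 1, 2 and 4, a difference of 0.89 from day 2 to day 4. All 17 of its targets compared were at or above 5 on both days, with a median of 0.13 and none 2-fold lower. At least 2-fold higher were 3 of them (17.6%), against 14.3% of all genes and 6.72% of those at or above 5 on both days. The 3 were Angptl4 (5.62 and 9.83), an inhibitor of lipoprotein lipase, Lpl, which is on the LXR list too, and the fatty acid binding protein gene Fabp4 (9.19 and 11.16). Fabp4 is also expressed by endothelial cells, and between the Ly6C low columns, where endothelial markers differed by a median of 0.65, it was at 10.07 and 9.21. Which cells its transcripts came from was not tested. The lipid droplet gene Plin2 (14.14 and 13.77) and the transglutaminase gene Tgm2 (13.94 and 13.41) were slightly lower.

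Several early inflammatory mediators were lower on day 4, although some chemokines were higher. Of 12 CC chemokine genes compared, 6 were at least 2-fold lower and 3 higher, with a median of -0.75, and at or above 5 on both days 6 of 9 were lower and none higher. Ccl6 was at 15.44, 14.41 and 12.08 on days 1, 2 and 4, Ccl9 at 14.84, 14.23 and 12.44, and the monocyte attractants Ccl2 (13.80, 12.56 and 11.20) and Ccl7 (13.58, 12.69 and 11.07) followed the same order. Higher on day 4 were Ccl5 (4.76 and 7.28), a T cell attractant, Ccl11 (4.03 and 6.96) and Ccl22 (4.83 and 6.34), each under 5 on day 2. The list of CXC chemokines, which also held the CX3C chemokine Cx3cl1, had 4 of 10 genes higher and 3 lower with a median of 0.24, and 3 of 9 each way with a median of -0.24 at or above 5 on both days. Lower were Cxcl3 (12.03 and 10.25) and Pf4 (12.49 and 11.18) with Ppbp, whereas Cx3cl1 (2.63 and 6.68, under 5 on day 2), Cxcl12 (7.88 and 10.86) and Cxcl16 (10.87 and 12.34) were higher. Endothelial and stromal cells are known sources of Cx3cl1 and Cxcl12, and their markers were higher in the same column.

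Of 15 cytokine genes compared, 6 were lower (40.0%) and 1 was higher. Il1b was at 15.85, 14.63 and 13.19 over the 3 days, Ptgs2, which encodes cyclooxygenase-2, at 14.58, 13.14 and 11.64, and Csf3, the neutrophil growth factor, at 8.93, 7.12 and 5.65. Il6 alone was higher, at 6.40 and 9.14; in Ly6C low cells it was at 4.03 and 5.81. Tnf (11.55 and 11.24) and Il10 (10.30 and 10.09) differed by less than 0.5. Lower along with these mediators were 5 of 9 neutrophil markers (median -1.73; 4 of 8 at or above 5 on both days), with S100a9 at 7.36 and 5.04.

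Among chemokine receptors, Cx3cr1, the receptor of patrolling and resident cells, was at 8.60 and 10.35, Ccr2, that of inflammatory monocytes, at 12.08 and 11.49, and Ccr1 at 11.58 and 10.04. Of 20 genes typical of classical monocytes, 7 were 2-fold lower (35.0%) and 2 higher, and their median was -0.63. The proteoglycan gene Vcan was at 14.21, 13.35 and 11.07 over the 3 days. Cd177, which is on the neutrophil marker list too, was at 10.23 and 8.50 on days 2 and 4. Without members of the marker lists of other cells, 6 of 18 were lower and 2 higher, with a median of -0.48. Exceptions upward were Ly6c1, a paralog of Ly6c2 whose reads may be shared with it and which endothelial cells express (7.67 and 9.71), and Mgst1 (8.09 and 9.32). Of 15 genes of patrolling monocytes, 7 were higher (46.7%) and 1 lower, and their median was 0.75, with 6 of 14 higher among those at or above 5 on both days. They included Ace (7.53 and 9.98), which endothelium also expresses, Emr4 (7.04 and 9.08) and Ear2 (6.72 and 8.04). In Ly6C low cells, where 3 of the endothelial markers were 2-fold higher, Ace and Emr4 were 2.36 and 4.38 higher on day 4. The part of endothelial cells in these differences was not tested in either sort.

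Arg1, arginase 1, which turns arginine into ornithine, had the lowest difference of all genes above the median level. It was at 14.86, 12.70 and 8.66 on days 1, 2 and 4, or 16.4-fold lower on day 4 than on day 2, with a counting error of 0.0340 on a difference of -4.04. In Ly6C low cells it was at 13.40 on day 2 and differed by -4.40. Arginine use and alternative activation had 5 of 18 genes 2-fold lower (27.8%) and 1 higher, and a median of -0.40. The mannose receptor gene Mrc1 (14.33 and 12.84), Cd163 (10.34 and 8.98) and Chi3l3 (9.36 and 7.88) were among those lower, while the lectin gene Mgl2 was higher (5.66 and 6.87). Arg2 (9.65 and 8.87) and Odc1 (9.76 and 9.64), which uses ornithine for polyamines, differed by less than 2-fold. The other lowest differences were those of Serpinb2 (9.30 and 6.10) and its neighbour on chromosome 1 Serpinb10 (8.54 and 5.95), serine protease inhibitors whose gene models overlap, so that reads may be shared. Ltb4r1, the leukotriene B4 receptor (10.06 and 6.95), Hal, histidine ammonia-lyase (11.12 and 8.43), and Agpat9, a glycerophosphate acyltransferase (10.67 and 8.39), followed.

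Growth and repair factors were divided. Of 23 compared, 9 were 2-fold higher (39.1%) and 6 lower (26.1%), and at or above 5 on both days 5 were higher and 5 lower of 18. Igf1, a growth factor for muscle fibres, was at 5.04, 6.90 and 9.72 over days 1, 2 and 4, and Gdf15 at 4.63, 5.70 and 8.97. Both were at a higher level in Ly6C low cells on day 4, at 10.85 and 10.06. Pdgfb was at 6.26 and 8.29, and Igf2, an imprinted gene of stromal and myogenic cells, at 3.01 and 7.11. Lower were the EGF receptor ligand genes Areg (10.91, 9.16 and 6.57) and Ereg (9.55, 6.45 and 4.72), Inhba (10.53, 8.25 and 6.45) and Vegfa (12.73, 12.26 and 11.09). Tgfb1 was at 12.16 and 12.09. Of 17 clotting and fibrinolysis genes, 5 were higher (29.4%, against 14.3% of all genes) and 4 lower (23.5%, against 2.00%), with a median of 0.20. At or above 5 on both days, however, 2 of 14 were higher and 4 lower with a median of -0.49. The coagulation factor genes F10 (11.87 and 10.32) and F13a1 (14.21 and 12.74) were among the lower ones.

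Glycolysis genes were nearly all below 0. Of 25, 6 were at least 2-fold lower (24.0%), 24 were below 0, and the median was -0.68. At or above 5 on both days, 6 of 23 were lower and none higher. The lactate exporter gene Slc16a3 was at 12.06 and 10.55, the pyruvate kinase gene Pkm at 14.09 and 12.82, the enolase gene Eno1 at 11.43 and 10.26, and the glucose transporter gene Slc2a1 at 10.95 and 9.81. Ldha (12.46 and 11.68) and Gapdh (9.87 and 9.13) were lower by less than 2-fold. Adm, a vasodilator peptide gene induced by hypoxia and expressed in endothelium, was the exception, at 1.83 and 5.03. Lysosome genes, by contrast, had a median of 0.02, and all 31 were at or above 5 on both days. Of these, 2 were 2-fold higher (6.45%, near the 6.72% of all such genes), Ctsk (8.50 and 9.93) and Atp6v0d2 (8.45 and 9.80). Among iron genes, Slc40a1, the iron exporter ferroportin, was at 5.05 and 7.59 and the ferroxidase gene Cp at 4.61 and 7.76, whereas the heme oxygenase gene Hmox1 was at 13.30 and 13.86.

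Cell cycle genes separated by phase. Of 27 mitosis genes, 21 were at least 2-fold higher on day 4 (77.8%), and all 27 were above 0, with a median of 1.50. At or above 5 on both days, 11 of 16 were higher. Ube2c, the ubiquitin-conjugating enzyme of the anaphase-promoting complex, was at 2.11, 3.92 and 6.42 over the 3 days (a difference of 2.50, or 1.70 with a pseudocount of 16), Cenpf at 0.91, 4.10 and 6.45, and the mitotic cyclin gene Ccnb2 at 3.66, 5.16 and 7.04. Cenpa (9.09 and 9.13) and Aurka (5.90 and 6.07) did not differ by 2-fold. DNA replication genes had a median of 0.45, with 4 of 29 at least 2-fold higher (13.8%, near the 14.3% of all genes) and 2 of 22 at or above 5 on both days. The 4 were Dut (a difference of 1.36), Rrm2 (5.76 and 6.96), Tyms (1.18) and Mcm10 (1.10). The helicase subunit genes Mcm6 (7.66 and 8.20) and Mcm2 (7.96 and 7.83) and Pcna (10.02 and 9.88) were among the others. After quantile normalization 13 of the 27 mitosis genes were 2-fold higher with a median of 0.99, and no DNA replication gene was, with a median of 0.00. In Ly6C low cells the medians were 0.79 for mitosis and -0.40 for replication, so replication genes lay on opposite sides of 0 in the sorts; with no replicate values that difference was not tested.

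Promoter windows were found for 22 of the mitosis genes and 23 of the replication genes. The cell cycle homology region, a motif of late cell cycle genes searched as TTTGAA on both strands, was in 16 of the 22 (72.7%) and in 3 of the 23, against 13.9% of the compared genes with a window. The windows of Ccnb2, at chr9:70421505-70421804 (reverse strand), and Ube2c, at chr2:164769679-164769978 (forward strand), are shown to place it, with the motif in capitals. In Ccnb2 it lies on the strand of the gene at positions -167 and 4, and in Ube2c on the opposite strand at position -29.
Ccnb2: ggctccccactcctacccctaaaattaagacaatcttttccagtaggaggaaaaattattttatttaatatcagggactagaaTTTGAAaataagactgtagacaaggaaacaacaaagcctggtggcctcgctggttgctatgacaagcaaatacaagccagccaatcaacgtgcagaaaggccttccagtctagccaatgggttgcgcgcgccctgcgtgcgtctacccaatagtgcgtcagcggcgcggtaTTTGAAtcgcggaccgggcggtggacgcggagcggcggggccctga
Ube2c: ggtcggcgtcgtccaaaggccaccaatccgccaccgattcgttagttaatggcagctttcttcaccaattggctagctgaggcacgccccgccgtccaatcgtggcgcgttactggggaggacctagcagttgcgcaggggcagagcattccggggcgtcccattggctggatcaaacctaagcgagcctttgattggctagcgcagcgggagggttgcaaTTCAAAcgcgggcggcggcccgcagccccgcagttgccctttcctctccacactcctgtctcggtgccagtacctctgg

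The genes highest above their day 2 level were mostly stromal. Of 24 structural matrix genes 23 were at least 2-fold higher (95.8%), with a median of 4.71, and at or above 5 on both days 19 of 20. Postn (periostin) was at 4.81, 5.95 and 12.43 over days 1, 2 and 4, Eln (elastin) at 1.21, 3.11 and 9.02, and Col1a1 was at 13.83 on day 4, 56.6-fold above day 2. Fn1 (fibronectin), which monocytes express themselves, was the exception, at 16.26 and 15.59. The 10 highest differences above the median level also held H19, an imprinted noncoding RNA (2.13 and 9.64), Cilp, a matrix protein of cartilage (2.05 and 9.38), the Wnt antagonists Sfrp1 (2.27 and 8.92) and Sfrp2 (3.12 and 9.08), Thbs4 of tendon (3.68 and 10.08), Dpt (2.77 and 8.71) and Gm15725, a transcribed processed pseudogene (3.27 and 9.41). On day 1 Gm15725 was at 9.02 in neutrophils and at 0.00 in Ly6C high cells. With a pseudocount of 16 the differences of H19 and Cilp were 5.31 and 5.08 in place of 7.50 and 7.33, and those of Sfrp1, Thbs4, Gm15725, Sfrp2, Dpt and Eln lay between 4.25 and 5.25. Fibroblast markers were higher for 15 of 18 with a median of 4.33, and for 9 of 12 at or above 5 on both days, with Pdgfra at 4.25 and 8.44. Pdpn, which inflammatory macrophages also express, was lower, at 11.94 and 9.72. Of 18 matrix protease and inhibitor genes 10 were higher, with Mmp2 of stromal cells at 4.72 and 10.30 and macrophage elastase, Mmp12, at 8.36 and 10.90, and 4 were lower, Mmp8, Timp1, Adam8 and Mmp19, by -2.08, -1.59, -1.61 and -1.23. Among the 11 at or above 5 on both days 3 were higher and 4 lower, and the median was 0.57 in place of 1.81.

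Vessel markers and plasmacytoid dendritic cell markers differed more in the Ly6C high columns than in the Ly6C low ones. Of 20 endothelial markers 19 were 2-fold higher, with a median of 2.74, and 12 of 13 at or above 5 on both days. Cdh5 (VE-cadherin) had Ly6C high levels of 7.85, 7.67 and 10.56 over days 1, 2 and 4, against 6.08 and 6.25 in the other sort. All 11 pericyte and smooth muscle markers compared were higher, as were the 7 at or above 5 on both days, with Pdgfrb at 5.62 and 9.22. Of 13 plasmacytoid dendritic cell markers 10 were higher with a median of 2.03, and at or above 5 on both days 5 of 8 with a median of 1.46. Spib was at 7.01 and 9.73, Siglech at 7.03 and 9.51 and Klk1 at 2.19 and 5.58, while Ly6C low cells had 3.23 and 3.34 for Spib. Plasmacytoid dendritic cells and many endothelial cells carry Ly6C, and whether this bears on the contrast between the sorts was not tested. On day 4 the summed fibroblast and pericyte lists were also higher in the Ly6C high column (0.647% and 0.0466%) than in the Ly6C low one (0.181% and 0.0117%). T and NK cell markers compared numbered 4 of 21, with 3 higher, and 1 of the 2 at or above 5 on both days was higher. The summed level of all 21 was 0.0256% of the column on day 2 and 0.0246% on day 4. Of the 4 compared, Cd4 was at 5.17 and 8.55 and Cd8a at 3.13 and 6.02. Both are also expressed by dendritic cell types, and Cd3e was at 2.29 and 4.29.

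**Figure D4:**
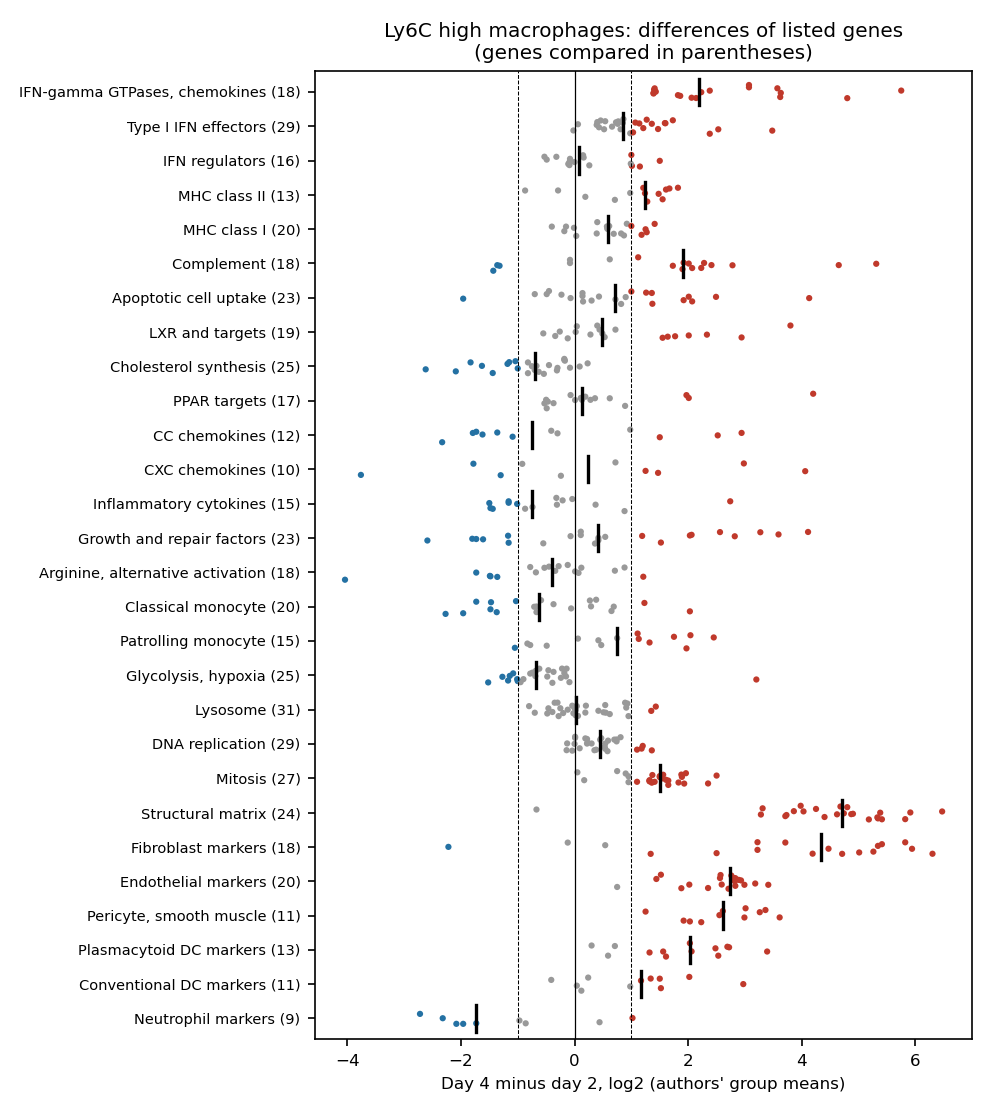
Difference of the authors' log2 group means, day 4 minus day 2 (horizontal axis), for the members of 28 gene lists (rows), 1 dot per gene compared, with a black bar at the median and dashed lines at 2-fold. The interferon gamma row lies wholly to the right of 1 (median 2.18), the sterol synthesis row to the left of 0 for 23 of 25 genes, and the structural matrix and fibroblast rows reach above 6.

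Leaving out the 127 members of the marker lists of other cells and of the structural matrix left 1667 genes higher and 239 lower. With 477 genes set aside because their day 4 level in Ly6C high cells was at least 4-fold above every other macrophage column, a limit chosen after the values were seen, 1284 were higher and 247 lower. The day 2 column was among those others, so each gene set aside was a higher one by construction. The count of 247 could not change, and the removal does not test the asymmetry.

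The Ly6C low columns, from other samples of the same days, give a second view of the interval. There 1091 of 11824 genes were at least 2-fold higher on day 4 (9.23%) and 255 lower (2.16%). Higher in both sorts were 751 genes, which is 42.6% of the Ly6C high list and 68.8% of the Ly6C low list. Lower in both were 130, or 52.6% and 51.0%. In opposite directions were 3 genes, higher in Ly6C high and lower in Ly6C low, and 0 the other way. Across the 12621 genes compared in either sort the 2 differences had a Pearson correlation of 0.852; genes are not independent replicates. Median differences were close in both sorts for structural matrix (4.71 and 4.67), MHC class II (1.24 and 1.63) and the arginine list (-0.40 and -0.43), and further apart for endothelial (2.74 and 0.65), plasmacytoid dendritic cell (2.03 and 0.16) and T and NK cell markers (2.30 and 0.21, 4 genes). Every list median given for Ly6C low cells is over the members that passed the filter in the Ly6C high columns. A member that entered through 1 of those columns alone had to differ between them. At or above 5 on both days, the Ly6C high medians were 2.56 (endothelial), 1.46 (plasmacytoid dendritic) and 1.41 (T and NK, 2 genes). None of these differences between sorts was tested.

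**Figure D5:**
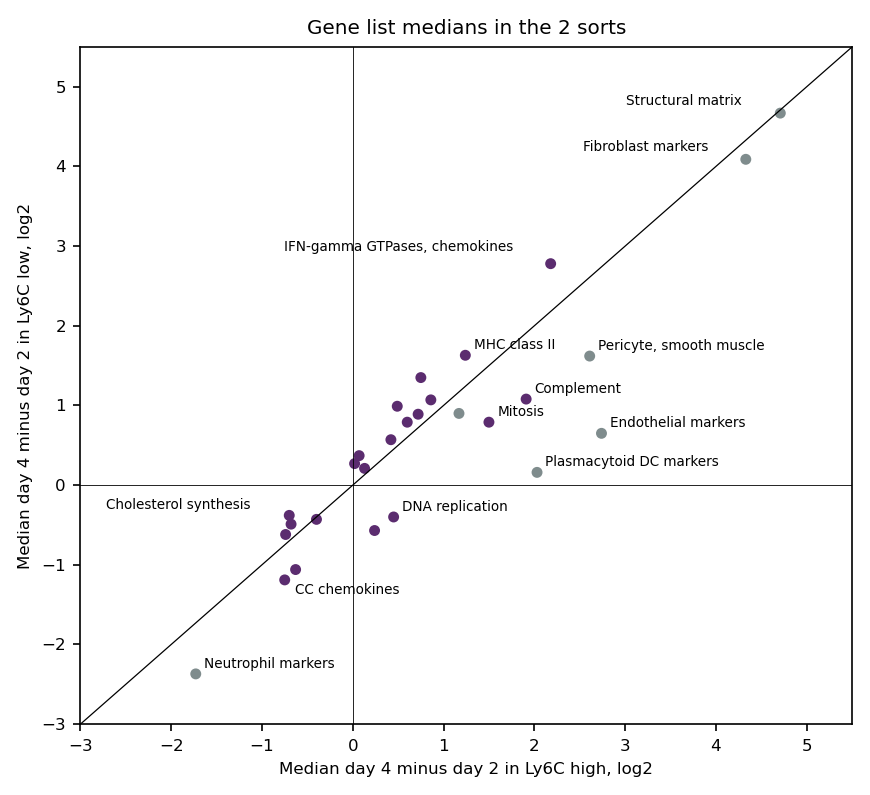
Median day 4 minus day 2 of each of 28 gene lists in Ly6C high (horizontal axis, log2) and Ly6C low columns (vertical axis, log2), 1 point per list, grey for markers of other cells and structural matrix, with the line of equality. Among the lists drawn, the endothelial (2.74 and 0.65) and plasmacytoid dendritic cell lists (2.03 and 0.16) lie well below it. Both medians of a list are over the members that passed the filter in the Ly6C high columns.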

How the data were processed

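RNA was sequenced from sorted cells as poly-A libraries. The values are log2 normalised reads that the authors deposited as 1 column per group; the submitters' processing notes name TopHat2 2.0.7, Cufflinks 2.0.2 and mm10, with no role, and the normalization is not given in the sources used here. Columns were read as means over samples of log2 values. From them the difference day 4 minus day 2 was computed (Python 3.11.15, pandas 2.3.3, NumPy 2.4.6) wherever 1 of the 2 columns reached 5, without a pseudocount, and counted at 2-fold. A test over single samples could not be made. Values of 36.8% (day 2) and 42.0% (day 4) of low genes were whole multiples of 3 constants, within a relative tolerance of 1e-05, and gave the reads behind a value. The calculation was tested on simulated data.

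The members and the 45 gene lists were chosen with earlier results of these data known. Named were the 4 markers, the 10 highest and 10 lowest differences among genes whose higher column reached that column's median over all genes compared, and from each list up to 8 members past 2-fold, largest first, and up to 4 others. Outside this rule, C5ar1, Cfp, Ereg, Inhba, Vegfa, Pdgfra, Pdpn, Timp1, Adam8 and Mmp19 were chosen after their values were seen. Some genes that meet the rule are not reported here. Where rows shared a symbol (3966 rows), the row with the highest mean stood for it. GENCODE M21 (GRCm38) holds 36308 of the identifiers (95.3%), and promoters are RefSeq windows on GRCm38.p6. Alternatives were pseudocounts of 1 and 16, other filters, median-ratio and quantile rescaling, protein-coding genes alone and, added after seeing the data, the removal of the marker lists or of genes highest in the day 4 column.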

Additional observations from a re-analysis of the deposited data

How the results depend on the processing

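With no filter on low values 4162 genes were higher and 380 lower. Higher genes numbered 733 with a value of at least 5 in both columns and 820 with a value of at least 7 in 1 column, and quantile normalization gave 611 lower genes. These filters test other numbers of genes by construction; the cause of the quantile shift was not tested. Pseudocounts of 1 and 16, median-ratio rescaling (a shift of -0.041), protein-coding genes alone, and the removal of marker lists or of genes highest in the day 4 column kept both counts within 1.5 times. Removing genes highest in the day 4 column could take out higher genes alone, so the lower count was fixed in advance there. Of 434 list medians recomputed, 391 stayed within 1.5-fold, and 13, from 6 lists, lay on the other side of 0. Mast cell and eosinophil markers were at -0.89 with a value of at least 7, where 1 gene was left, against 1.14. The others were CXC chemokines (0.24, down to -0.58), coagulation (0.20, down to -0.49), resident macrophage (-0.28, up to 0.43), platelet (-0.76 and 1.36) and erythroid genes (-0.50 and 0.68). Of 454 differences of 48 named genes, 440 stayed within 1.5-fold, 14 moved further, Cxcl9 among them, and 0 changed sign. Filters and removals of genes leave a gene's own difference as it was, so most of these values were fixed in advance. Only the pseudocounts and the rescalings could move one, and a pseudocount cannot change a sign. No paired analysis was possible because the table holds 1 column per group, and for the same reason the replicate block and the leaving out of samples were not run. Reads of 44.7 to 60.8 at a value of 5 limit low genes.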

Other observations

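Imprinted genes that are highly expressed in embryonic and stromal cells, chosen after the values were seen, were higher on day 4 in both sorts. Besides H19, Meg3 was at 1.64 on day 2 and 7.68 on day 4 in Ly6C high cells, Peg3 at 1.55 and 7.11, Mest at 4.27 and 9.28 and Grb10 at 5.02 and 9.05. Their differences between the Ly6C low columns were 5.55, 5.61, 4.25 and 4.78. Plagl1, another imprinted gene, was at 5.76 and 6.59 and was under 2-fold.

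A few loci known to collect reads of ribosomal RNA-like sequence were higher in the day 4 Ly6C high column than in the day 2 one, and not in Ly6C low cells. Lars2, a mitochondrial leucyl-tRNA synthetase gene, was at 9.89 and 12.32 in Ly6C high cells and at 9.96 and 9.90 in Ly6C low cells. Gm15564 (7.44 and 9.85), Mir5105 (4.93 and 8.33) and AC087541.1 (7.90 and 10.07) differed with it, by -0.26, 0.03 and -0.17 between the Ly6C low columns. In Ly6C high cells of day 1 the 4 loci were also above their day 2 levels, at 11.05, 8.67, 6.12 and 8.97. Neutrophils of day 1 had 13.21, 10.28, 7.99 and 7.62. These 4 loci were also chosen after their values were seen, and their bearing on the other differences was not tested. Of 76 ribosomal protein genes compared, 0 were 2-fold apart, 71 were above 0 and the median was 0.26. Processed pseudogenes were 2-fold higher for 9 of 1030 (0.874%) and lower for 10 (0.971%), against 15.7% and 2.06% of 10792 protein-coding genes.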
